A study of Mus musculus with 6 samples.

Results

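The alpha-arrestins are adaptor proteins of the plasma membrane and endosomes. The genes described here are *Arrdc1*, *Arrdc2*, *Arrdc3*, *Arrdc4* and *Txnip*, found by their exact symbols in the deposited table, where all 5 were present among 18152 genes and all 5 passed the filter on low counts, which left 14131 genes. The family was chosen from its values in the comparison of *Kdf1*-deleted with control libraries, in which *Arrdc3* stood out, so the values of that comparison are given for these 5 genes as a description and without a p. *Arrdc5*, which belongs to the same family, had no row in the table.

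RNA-seq libraries were made from the inner enamel epithelium (IEE) of the mandibular first molar of mouse embryos at E18.5, with 3 libraries per group. The control mice carried floxed *Kdf1* alleles without Cre (*Kdf1 fl/fl*, called WT or control in the sample labels), and the conditional knockout mice (cKO) were *K14-Cre;Kdf1 fl/fl*. In the latter, Cre recombinase is driven by the keratin 14 promoter and so acts in epithelial cells in general, not in the IEE alone. Both lines had a C57BL/6J background, no group with Cre alone was analysed here, and the tissue was cut from frozen head sections by laser capture microdissection. The labels call the libraries biological replicates and do not say whether each is 1 embryo or a pool.

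Alpha-arrestins share the arrestin fold with the beta-arrestins, and most of them carry short proline-rich motifs in their tails that bind the WW domains of NEDD4-family ubiquitin ligases. In this way they bring a ligase to a receptor or transporter, which is then ubiquitinated and taken up. TXNIP also binds thioredoxin and promotes the uptake of glucose transporters from the cell surface, and ARRDC1 recruits the ESCRT protein TSG101 to bud vesicles from the plasma membrane. *Txnip* and *Arrdc4* are known targets of MondoA and ChREBP, glucose-sensing transcription factors that bind DNA together with MLX.

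The promoters of *Txnip*, *Arrdc4* and *Arrdc3* are shown because the first 2 genes varied together over the libraries and the last did not follow them. Each line holds the 250 bases before an annotated start site in RefSeq (build GRCm38.p6), written 5′ to 3′ on the strand of the gene. Capitals mark the carbohydrate response element and forkhead element of *Txnip*, the E-box of *Arrdc4*, and CCAAT boxes on either strand in all of them.
*Txnip* (chr3:96557707-96557956, plus strand): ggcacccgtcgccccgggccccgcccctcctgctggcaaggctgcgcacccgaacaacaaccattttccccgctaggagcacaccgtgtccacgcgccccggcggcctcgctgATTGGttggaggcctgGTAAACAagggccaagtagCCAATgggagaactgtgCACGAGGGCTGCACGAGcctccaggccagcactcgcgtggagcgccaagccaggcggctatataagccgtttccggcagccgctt
*Arrdc4* (chr7:68749239-68749488, minus strand): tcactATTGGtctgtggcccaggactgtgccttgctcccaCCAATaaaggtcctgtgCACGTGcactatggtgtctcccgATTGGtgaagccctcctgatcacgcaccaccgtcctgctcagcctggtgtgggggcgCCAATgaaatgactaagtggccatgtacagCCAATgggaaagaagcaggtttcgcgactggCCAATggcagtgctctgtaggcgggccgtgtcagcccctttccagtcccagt
*Arrdc3* (chr13:80883134-80883383, plus strand): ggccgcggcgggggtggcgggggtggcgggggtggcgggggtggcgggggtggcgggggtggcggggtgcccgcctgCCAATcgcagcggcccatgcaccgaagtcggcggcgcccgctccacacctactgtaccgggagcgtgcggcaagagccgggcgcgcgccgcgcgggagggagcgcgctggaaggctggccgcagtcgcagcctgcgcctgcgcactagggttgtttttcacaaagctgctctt

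Motifs were searched on both strands of this window in the 32851 start sites of the RefSeq table, with several sites for some genes. The carbohydrate response element was taken as a pair of CACGNG elements 5 bases apart, which can include the E-box CACGTG. It was found before *Txnip*, from base -85 to base -69 before the start, and in 0.0457% of all windows. The forkhead element GTAAACA lay from base -121 to base -115 before *Txnip* and was present in 3.17% of all windows. *Arrdc4* had the E-box CACGTG at base -193 to base -188, which 6.02% of all windows held, and 6 CCAAT boxes, where 33.8% of all windows had at least 1. *Arrdc3* had 3 annotated start sites, of which the first is printed, with 76.0% G and C in that window. The windows of the first and the last site listed overlap and hold the same CCAAT. The window of the remaining site, farther downstream, had none. The other motifs were in none of the 3 windows. The half-site AGAACA of the glucocorticoid receptor was in 16.1% of all windows and in none of the windows of the 5 genes. These are matches of letters and not measured binding sites.

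Library totals ranged from 14713918 to 16675133 estimated counts, and the biological coefficient of variation between replicates was 25.4%. *Kdf1* had between 731 and 836 counts in the control libraries and 0, 1 and 0 counts in the cKO libraries. Of 11 markers of dental epithelium, all were tested and none was at 0 in any library. Of these, 10 had a negative log2 fold change, 1 (*Cdh1*) fell past the criterion given below in edgeR, against 4 when blocked by replicate number and 3 in DESeq2, beside 0.432%, 6.09% and 6.94% of all genes tested in these 3 fits, and their median was -0.83, beside -0.00 over all genes tested. Their summed level in CPM (estimated counts scaled to a common library total) was 14941 to 28212 in control and 6620 to 11017 in cKO libraries. Markers of dental papilla and odontoblasts had values in both directions, with 6 of 10 genes positive, 4 negative and a median of 1.08. *Twist1* rose past the criterion in edgeR, and 6 of the 10 passed with the block and in DESeq2, 5 higher and 1 lower. The lower gene was *Dspp*, an odontoblast matrix gene, with a log2 fold change of -3.45. The list summed to 4167 to 22383 CPM in control and 10536 to 12452 CPM in cKO libraries. Immune markers (10 genes, all positive, median 1.66) included 3 past the criterion in edgeR (*S100a8*, *S100a9* and *Ngp*), 4 with the block and 6 in DESeq2. They summed to 32.8 to 64.9 and 72.1 to 228 CPM, and endothelial markers (7 genes, all positive, median 0.93, none past the criterion in edgeR or with the block and 1, *Pecam1*, higher in DESeq2) to 311 to 406 and 354 to 1106 CPM. Erythroid markers (6 genes, median -0.07) summed to 826 to 1300.4 and 797 to 1221 CPM, and skeletal muscle markers (2 of 6 genes tested, median 1.06) to 2.18 to 5.15 and 3.49 to 11.0 CPM, none of either list past the criterion in any of the 3 fits. The part of these tissues in the values below was not tested.

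*Txnip* was the most abundant member. Levels of different genes were compared in TPM, a unit scaled by transcript length as well as by library. *Txnip* was at 429, 377 and 361 TPM in control replicates 1, 2 and 3, where it ranked between 299 and 352 among all 18152 genes, and at 546, 563 and 315 TPM in the cKO replicates, with ranks between 232 and 407. It held 69.0% ± 2.78 (SD, n = 3) of the summed TPM of the family in control and 74.9% ± 4.95 in cKO libraries. The sum itself was 563 ± 31.0 TPM in control and 627 ± 150 TPM in cKO libraries (SD, n = 3 per group), with overlapping ranges.

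In the control IEE, *Arrdc3* and *Arrdc4* followed *Txnip* with 65.4 ± 11.7 and 62.2 ± 1.18 TPM (SD, n = 3). These neighbours did not differ beyond their spread, as *Arrdc3* was above *Arrdc4* in replicate 3 only. *Arrdc1* came next with 39.4 ± 4.64 TPM, below every value of both, and *Arrdc2* was the lowest with 6.94 ± 1.33 TPM. In the cKO libraries the order was *Txnip*, *Arrdc4* with 78.5 ± 24.4 TPM, *Arrdc1* with 45.2 ± 10.6 TPM, *Arrdc3* with 22.9 ± 0.867 TPM and *Arrdc2* with 6.03 ± 0.727 TPM. *Arrdc4* and *Arrdc1* were close there in replicate 3, with 56.3 and 53.2 TPM. *Arrdc3* thus lay between *Arrdc1* and *Arrdc2* in every cKO library and above *Arrdc1* in every control library. Its share of the family's TPM was 11.7% ± 2.54 in control and 3.85% ± 1.21 in cKO libraries (SD, n = 3).

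**Figure D1:**
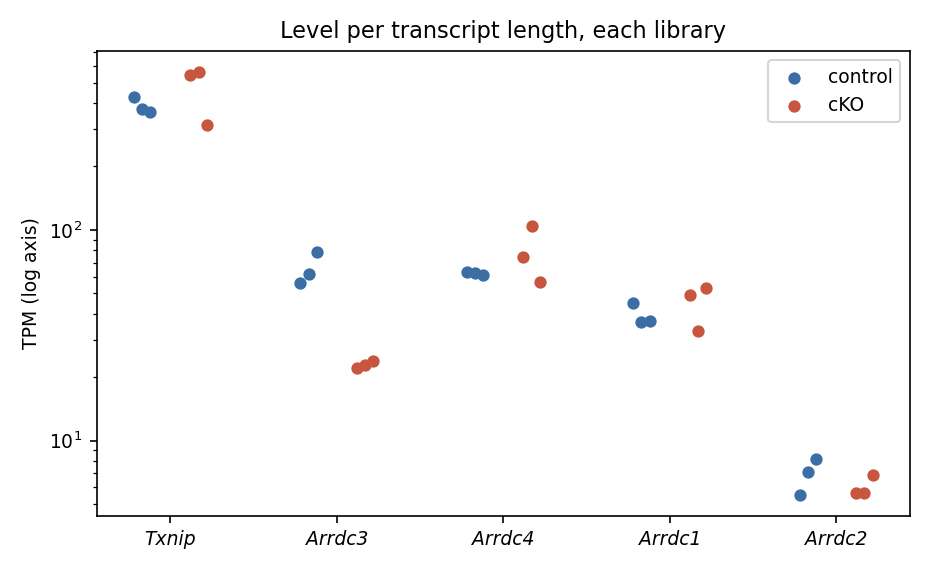
Level of each gene in TPM (log axis) in the 3 control (blue) and 3 cKO (red) libraries, 1 point per library. *Arrdc3* is beside *Arrdc4* in control libraries and below *Arrdc1* in all 3 cKO libraries.

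*Arrdc3* encodes an adaptor reported to act on cell surface receptors and integrin beta 4. It had 125, 129 and 188 CPM in control replicates 1, 2 and 3 and 44.1, 48.7 and 51.2 CPM in the cKO replicates. Every cKO library was below every control library, and the control values were spread more widely than the cKO values. The means were 147 ± 35.0 CPM and 48.0 ± 3.62 CPM (SD, n = 3 per group), so the cKO mean was 32.6% of the control mean, or 3.07-fold lower. In TPM the cKO mean was 35.1% of the control mean. The fitted log2 fold change was -1.62 (SE 0.18), and 0.842% of all genes tested had a lower value. Between libraries with the same replicate number, the differences lay between -1.87 and -1.41 on the log2 CPM scale. Under the 12 alternatives the log2 fold change lay between -1.71 and -1.41.

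*Arrdc3* was also read against the epithelial markers of the same libraries, because the mean of the summed markers was also lower in the cKO group, at 41.5% of the control mean. For each 1000 CPM of the 11 markers there were 8.34, 8.28 and 6.65 CPM of *Arrdc3* in control and 6.49, 7.36 and 4.65 CPM in cKO replicates 1, 2 and 3. On this ratio the groups overlapped, with means of 7.75 ± 0.960 and 6.17 ± 1.39 (SD, n = 3 per group). The sum includes *Amelx*, an enamel matrix gene, at 5505 ± 4791 CPM in control and 92.6 ± 116 CPM in cKO libraries. This gene is a large and variable part of the control sum. The overlap therefore holds for the sum with *Amelx* only. No sum without *Amelx* was formed, and nothing further is read from the overlap. Against single markers, *Arrdc3* was lower in every cKO library for 7 of 11, overlapped between the groups for 3 (*Krt14*, *Cdh1* and *Ambn*) and was higher for 1 (*Amelx*). The mean log2 ratio of *Arrdc3* to *Epcam* was lower in cKO libraries by a difference of -1.57, and that to *Krt14* by -0.10. These markers were singled out after their values were seen. In such bulk tissue, fewer cells of a type and less RNA per cell cannot be told apart.

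**Figure D2:**
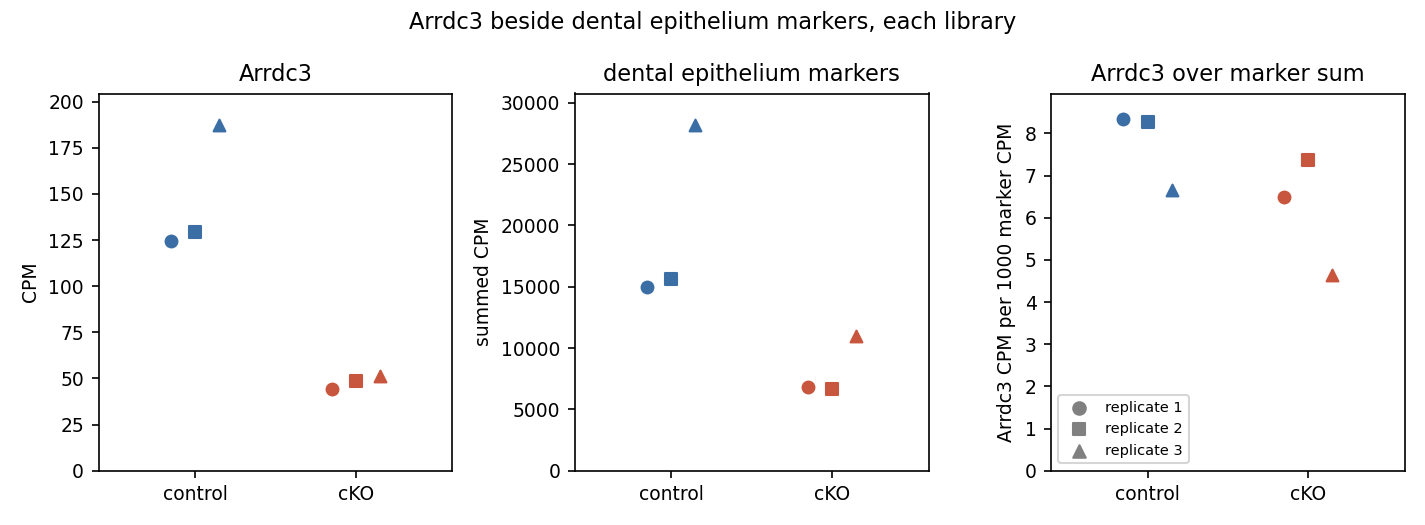
*Arrdc3* in CPM (left), the summed CPM of 11 dental epithelium markers (middle) and *Arrdc3* per 1000 CPM of these markers (right), 1 symbol per library and its shape for the replicate number. The groups are apart in the first 2 panels and overlap in the last, where control libraries lie between 6.65 and 8.34 and cKO libraries between 4.65 and 7.36. The marker sum includes *Amelx*, so the overlap holds for a sum with this gene only, and no sum without it was formed.

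*Txnip* encodes the thioredoxin-interacting protein. It had 630, 523 and 572 CPM in control replicates 1, 2 and 3 and 721, 808 and 475 CPM in the cKO replicates. Replicates 1 and 2 of the cKO group were above all control libraries and replicate 3 was below them, so the groups overlapped. The means were 575 ± 53.6 and 668 ± 172 CPM (SD, n = 3). Its log2 fold change of 0.22 was about as large as its SE of 0.21. It was 0.09 without replicate 2 and 0.43 without replicate 3 of the cKO group. An antisense gene, *Gm15441*, overlaps exons of *Txnip* in the GENCODE M21 annotation. Since the counting is not stated to use strand, reads of the pair cannot be told apart.

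*Arrdc4* encodes the member closest to TXNIP in known regulation by glucose. It had 67.6, 64.8 and 77.8 CPM in control and 83.0, 122 and 62.9 CPM in cKO replicates 1, 2 and 3. As for *Txnip*, the highest library was replicate 2 of the cKO group and the lowest was replicate 3 of that group. The means were 70.1 ± 6.84 and 89.4 ± 30.2 CPM (SD, n = 3), and the fitted change on the log2 scale was 0.35 (SE 0.24). It was 0.09 without replicate 2 and 0.57 without replicate 3 of the cKO group.

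The profiles of *Txnip* and *Arrdc4* were alike over all 6 libraries. With each gene centred on its own mean log2 CPM, their root mean square difference was 0.16, while the other 9 pairs of members differed by 0.35 to 1.00. Among 14130 other genes tested, *Txnip* was the gene 36th in likeness to *Arrdc4*, and *Arrdc4* was 235th in likeness to *Txnip*. The ratio of *Txnip* to *Arrdc4* in TPM stayed between 5.38 and 7.33, whereas that of *Arrdc4* to *Arrdc3* was 0.775 to 1.13 in control and 2.36 to 4.60 in cKO libraries. This pair was examined after its values were seen, and the likeness is a description over 6 libraries. The genes nearest to *Txnip* by the same measure were *Impa2* (0.06), *Palm* (0.06) and *Smurf1* (0.07), the last a NEDD4-family ligase. Those nearest to *Arrdc3* were *Lipg* (0.15), which encodes endothelial lipase, *Slc6a2* (0.16) and the glycosyltransferase gene *C1galt1* (0.16). *Slc6a2*, the noradrenaline transporter gene, was at or under 1 CPM in both groups, with means of 0.747 and 0.214 CPM.

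**Figure D3:**
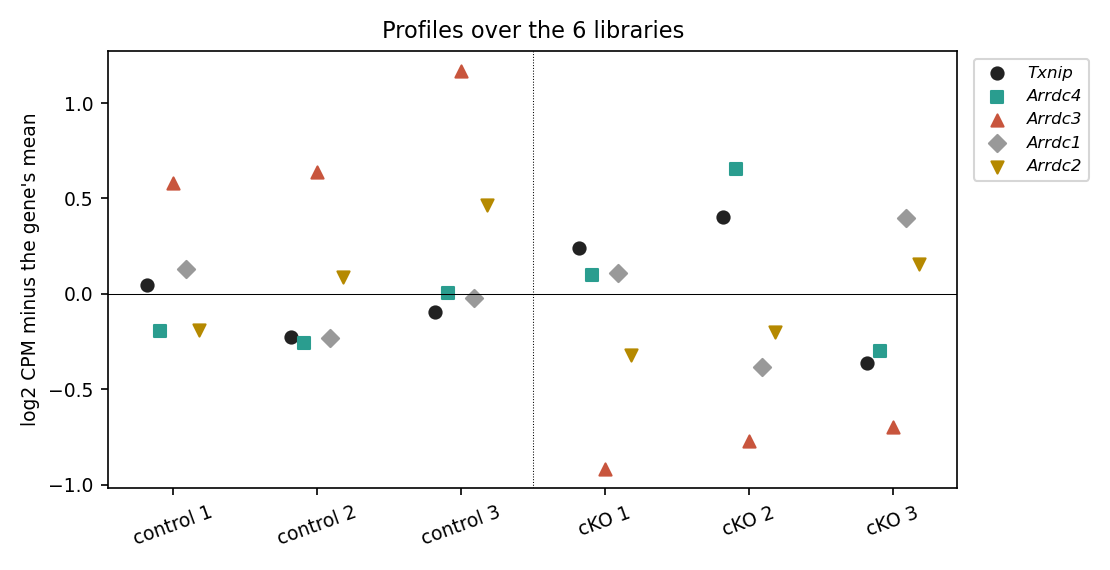
Level of each member in each library as log2 CPM minus the gene's mean over the 6 libraries. *Txnip* (circles) and *Arrdc4* (squares) are both highest in cKO 2 and lowest in cKO 3, and *Arrdc3* (upward triangles) is above 0.5 in all control libraries and below -0.7 in all cKO libraries.

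*Arrdc1* and *Arrdc2* overlapped between the groups. *Arrdc1*, whose protein takes part in vesicle budding, had 37.0, 28.7 and 33.1 CPM in control and 36.3, 25.8 and 44.5 CPM in cKO replicates 1, 2 and 3. Both the lowest and the highest value were in the cKO group. Its log2 fold change was 0.11 (SE 0.21), and it ranged from -0.06 without replicate 3 to 0.33 without replicate 2 of the cKO group. *Arrdc2* was at 6.71, 8.17 and 10.7 CPM in control and 6.13, 6.66 and 8.56 CPM in cKO replicates 1, 2 and 3. The cKO library was the lower of each same-numbered pair, but the ranges overlapped. Its log2 fold change was -0.26 (SE 0.26), and it ranged from -0.40 without replicate 3 of the cKO group to -0.07 without replicate 3 of the control group. It rested on 97 to 169 counts per library.

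**Figure D4:**
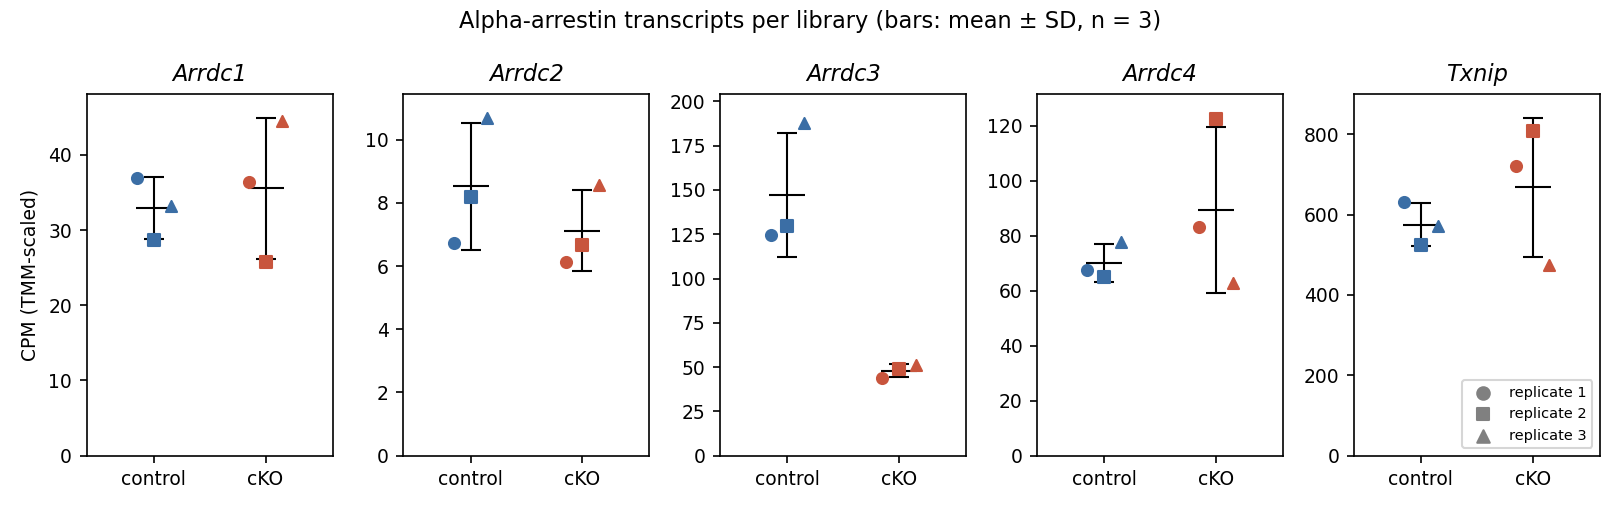
CPM of each member in the 3 control (blue) and 3 cKO (red) libraries, with the mean and SD as bars and the replicate number as the shape. The groups are apart for *Arrdc3*, with 125 to 188 against 44.1 to 51.2 CPM, and overlap for the other 4 genes.

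Of the 5 members, *Arrdc3* alone had groups that did not overlap, where 16.2% of all genes tested were lower in every cKO library, 14.5% were higher in every cKO library and 30.7% did not overlap in either direction. It was also the 1 member of 5 past the criterion of the study, a change of 1 or more in either direction on the log2 scale together with an adjusted p up to 0.05, in edgeR's quasi-likelihood test, which 0.432% of all genes passed. When edgeR was given the replicate numbers as blocks, 1 of 5 passed beside 6.09% of all genes, and in DESeq2 1 of 5 beside 6.94%. Nothing is read from these counts, since this contrast was known when the genes were chosen. *Arrdc3* was past the criterion in 6 of the 12 alternatives, and not with DESeq2's size factors in edgeR nor without replicate 1, 2 or 3 of the control group or replicate 1 or 2 of the cKO group, fits in which between 1 and 16 of all genes passed.

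Partners and regulators of the family were counted over 9 lists of 109 genes, of which 103 were tested. Only *Zbtb16*, in the glucocorticoid list, rose past the criterion (1 of 103 genes, 0.971%, beside 0.432% of all genes), and 36 of the 103 (35.0%) had an unadjusted p under 0.05, beside 24.5% of all genes. With the replicate block 9 of 103 (8.74%) passed, 5 higher and 4 lower, and in DESeq2 12 of 103 (11.7%), 8 higher and 4 lower. The lists were chosen with earlier results of these data known. These counts and the p values of list genes are therefore a description. Adjusted p values in the paragraphs that follow are from edgeR's quasi-likelihood test, adjusted by Benjamini and Hochberg over all genes tested.

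None of 11 genes for the ubiquitin ligases that alpha-arrestins recruit, or for adaptors of these ligases, passed the criterion in edgeR, with the block or in DESeq2, and the median log2 fold change was 0.05. *Nedd4* was the most abundant, at 1726 ± 141 CPM in control and 1792 ± 179 CPM in cKO libraries (SD, n = 3), with 0.05 (SE 0.15, adjusted p = 0.852). *Itch*, *Wwp1* and *Wwp2* had -0.04, -0.29 and -0.03, with adjusted p values of 0.909, 0.267 and 0.936. The adaptor genes *Ndfip1* and *Ndfip2* had -0.25 (SE 0.14) and 0.05 (SE 0.18). The largest value in the list was that of *Hecw2*, at 0.83 (SE 0.27, adjusted p = 0.126). *Nedd4l*, named after its values were seen, was nearly as far in the other direction, at -0.81 (SE 0.24, adjusted p = 0.109). In the list 6 genes were positive and 5 negative.

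Among 12 ESCRT genes, which sort ubiquitinated cargo and bud vesicles, none passed the criterion in any of the 3 fits and the median was -0.06. *Tsg101*, the partner of ARRDC1, was at 127 CPM in control and 123 CPM in cKO libraries, with -0.06 (SE 0.14, adjusted p = 0.841). *Vps37b* had the largest value, 0.46 (SE 0.13, adjusted p = 0.109). Of the other proteins with an arrestin fold, 7 of 8 genes were tested, none passed in any of the 3 fits and the median was -0.03. *Arrb1*, which encodes beta-arrestin 1, was at 453 ± 20.9 CPM in control and 349 ± 42.9 CPM in cKO libraries and lower in every cKO library, with -0.37 (SE 0.13, adjusted p = 0.148). *Arrb2* had 0.07 (SE 0.14, adjusted p = 0.806) and *Rgp1* the largest value among genes at 5 CPM or more, -0.40 (SE 0.17, adjusted p = 0.201).

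The thioredoxin system, which TXNIP binds and restrains, was tested with all 12 genes, none of which passed in any of the 3 fits, at a median of -0.08. *Txn1*, the cytosolic thioredoxin gene, was at 105 ± 11.7 and 119 ± 18.3 CPM in control and cKO libraries (log2 fold change 0.17, SE 0.15, adjusted p = 0.511), and *Txnrd1*, its reductase, had -0.10 (SE 0.13, adjusted p = 0.687). *Txnrd2*, of the mitochondrial system, had the largest value, -0.37 (SE 0.16, adjusted p = 0.213).

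Membrane proteins reported as cargo of alpha-arrestins had a median of -0.34 over 10 of 12 genes tested, 6 of them negative. None passed in edgeR, and *Notch1* and *F2rl1* were lower past the criterion with the block and in DESeq2. *Itgb4*, the hemidesmosome integrin, was at 793 ± 90.5 CPM in control and 457 ± 71.0 CPM in cKO libraries, lower in every cKO library, with -0.79 (SE 0.16, adjusted p = 0.0674). *Slc2a1*, which encodes the glucose transporter GLUT1, was at 91.6 ± 25.2 and 72.6 ± 38.9 CPM, with -0.33 (SE 0.43, adjusted p = 0.662), and *Slc2a3* had the largest value, 1.20 (SE 0.44, adjusted p = 0.160).

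In the list of MondoA, ChREBP and genes associated with them, 12 of 14 genes were tested and none passed in any of the 3 fits. The genes of these regulators of *Txnip* and *Arrdc4* are given first. *Mlxip*, which encodes MondoA, was at 116 ± 9.91 CPM in control and 130 ± 7.89 CPM in cKO libraries (log2 fold change 0.17, SE 0.11, adjusted p = 0.397). *Mlx*, the gene of their shared partner, was at 19.1 ± 1.10 and 17.9 ± 3.24 CPM (log2 fold change -0.09, SE 0.18, adjusted p = 0.780). The median of the list was -0.26, with 9 genes negative. Of the 12 genes, 6 were lower in every cKO library, as were 16.2% of all genes. *Scd1*, a fatty acid desaturase gene, had the largest value, -0.84 (SE 0.30, adjusted p = 0.153). *Fasn*, *Acly* and *Elovl6*, also of fatty acid synthesis and named after their values were seen, had -0.46, -0.46 and -0.58 and were below control in every cKO library without passing.

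**Figure D5:**
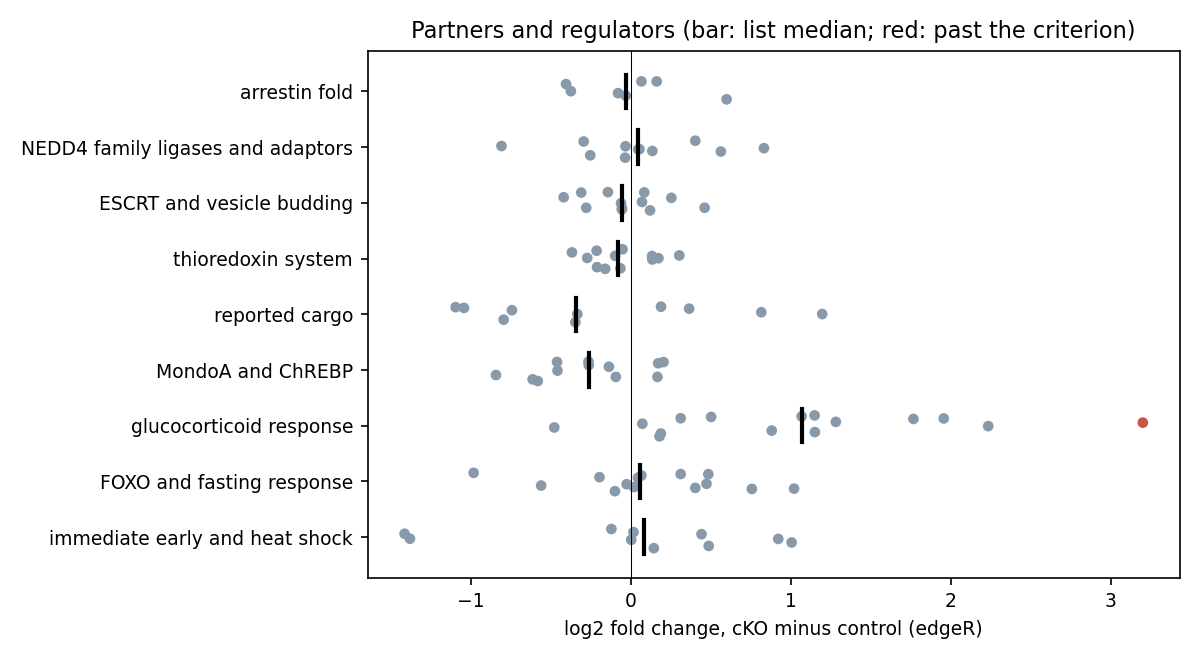
Log2 fold change of each tested gene in the 9 lists of partners and regulators, 1 point per gene, with a black bar at the median of the list. The 1 gene past the criterion (red) is *Zbtb16* at 3.20 in the glucocorticoid list, and the medians of the other lists lie between -0.34 and 0.08.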

How the data were processed

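RNA-seq data from the IEE of *Kdf1 fl/fl* (control) and *K14-Cre;Kdf1 fl/fl* (cKO) embryos were taken from 1 table, with groups from the sample labels. CPM are estimated counts per library total. The deposited estimated counts are the authors' reads per gene, without normalisation, and 10.9% to 11.5% of the values per library were not whole. The authors' deposited TPM and FPKM values are scaled by length and library, and FPKM was not used for a result. Columns of group means were not used. The submitters' processing notes name BWA 0.7.12, Picard 2.6.0 and StringTie without a role, and the genome build is not given in the sources used here. Therefore promoter sequences and annotation (RefSeq GRCm38.p6, matched by symbol for all 5 genes, and GENCODE M21) are separate from the counts.

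Counts were rounded, filtered by filterByExpr of edgeR 4.0.16 in R 4.3.3 (minimum count 10), scaled by TMM and compared by robust two-sided quasi-likelihood F-tests with Benjamini-Hochberg adjustment. The study names a fold and Q threshold but no test. CPM used TMM-scaled totals, and log2 CPM a prior count of 2. The floor for a gene without counts is 3 counts, at most 0.198 CPM in these libraries, and covers counting error only. Alternatives were DESeq2 1.42.0, the replicate block, 2 other scalings, no filter, limma 3.58.1 on log2(TPM + 1) and the omission of each library. The variance between libraries of a group was 35.4 to 77.3 times that of sampling, and none was treated as a copy. After centring on the group means, libraries of the same number had correlations of 0.135, 0.324 and 0.499 across genes. Values for unlike numbers are not given beside them, so these do not show that the numbers are pairs. No label states a shared litter, and the replicate block is an assumption. The members and lists were chosen with earlier results of these data known. Named genes were all members, direct partners and regulators, list genes past the criterion, the largest change in each list at 5 CPM or more, and the 3 genes nearest to *Arrdc3* and *Txnip*. Any other gene was named after its values were seen.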

Additional observations from a re-analysis of the deposited data

How the results depend on the processing

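The log2 fold changes of all 5 members moved by less than 1 SD between replicates in each of the 12 alternatives (60 of 60 values). With 3 libraries per group, leaving 1 out can hardly move a mean by that much, so these fits could hardly fail this measure. Without 1 library the values were -0.06 to 0.33 for *Arrdc1*, -0.40 to -0.07 for *Arrdc2* and -1.71 to -1.41 for *Arrdc3*. They were 0.09 to 0.57 for *Arrdc4* and 0.09 to 0.43 for *Txnip*. The 1 change of sign was that of *Arrdc1* given above. The number of genes past the criterion was 61 in edgeR (20 higher, 41 lower, 32.8% higher). It was 980 in DESeq2 (72.9% higher), 860 with the replicate block (68.4% higher), 103 without the filter on low counts and 16 with limma on log2(TPM + 1). With DESeq2's size factors in edgeR it was 7 (14.3% higher), and with library size alone 9 (22.2% higher). Without 1 library it ranged from 1 to 465, with 465 without replicate 3 of the cKO group, 16 without replicate 2 of the control group, and 1 in each of the other 4 fits. The associated genes past the criterion were 1 of 103 in edgeR, 12 in DESeq2 and 9 with the replicate block. They were 0 with DESeq2's size factors in edgeR, with library size alone and with limma on TPM, where 36, 35 and 32 of the 103 had an unadjusted p under 0.05, beside 24.6%, 24.3% and 21.7% of all genes. Without 1 library they ranged from 0 to 8, again with 8 without replicate 3 of the cKO group, and 25 to 34 (24.3% to 33.0%) had an unadjusted p under 0.05, beside 13.8% to 30.3% of all genes. The cause of these shifts was not tested. In the blocked fit the members' log2 fold changes were 0.08, -0.25, -1.59, 0.30 and 0.19 for *Arrdc1*, *Arrdc2*, *Arrdc3*, *Arrdc4* and *Txnip*, and the block changed the call of none of them. With 3 libraries per group and 97 to 169 counts for *Arrdc2*, counting error alone is largest for that gene.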

Other observations

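Genes of 3 hormone and stress responses known to act on some alpha-arrestin genes were examined in the same libraries. These lists too were chosen with earlier results of these data known, so their counts and p values are a description. Of 15 genes of the glucocorticoid response, 14 had a positive log2 fold change with a median of 1.07, and 8 were higher in every cKO library, as were 14.5% of all genes tested. *Zbtb16* rose from 2.18 ± 0.521 CPM in control to 20.1 ± 10.6 CPM in cKO libraries (SD, n = 3), which is 3.20 (SE 0.42) on the log2 scale, with an adjusted p of 0.0498 in edgeR's quasi-likelihood test. With the replicate block 5 of these genes passed and in DESeq2 7, all of them higher, beside 6.09% and 6.94% of all genes passing in either direction. Among them was *Tsc22d3*, which encodes the leucine zipper protein GILZ. *Tsc22d3* was at 19.4 ± 0.872 and 43.0 ± 16.1 CPM in control and cKO libraries (SD, n = 3), with 1.15 (SE 0.26, adjusted p = 0.0735 in edgeR). *Fkbp5*, at 19.3 ± 0.405 and 35.6 ± 21.1 CPM, had 0.88 (SE 0.41, adjusted p = 0.238 in edgeR). The receptor gene *Nr3c1* had 0.31 (SE 0.17, adjusted p = 0.290 in edgeR).

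Of 14 genes of the FOXO and fasting response tested, none passed the criterion in edgeR or with the block and *Fbxo32* passed in DESeq2, where it was higher. The median was 0.06, with 9 genes positive. In every cKO library 5 of the 14 were higher and 1 was lower, as were 14.5% and 16.2% of all genes tested. *Fbxo32*, a muscle atrophy ligase gene, had 1.02 (SE 0.34, adjusted p = 0.137 in edgeR). *Foxo1*, named after its values were seen, was at 312 ± 33.2 CPM in control and 158 ± 18.0 CPM in cKO libraries (SD, n = 3). Its adjusted p was 0.0498 in edgeR and its log2 fold change of -0.98 (SE 0.14) missed the fold of the criterion. Of 10 immediate early and heat shock genes none passed in edgeR, at a median of 0.08. *Hspa1a* and *Hspa1b*, near-identical copies between which reads can be split, were lower past the criterion with the block and in DESeq2, with -1.41 (SE 0.37, adjusted p = 0.0877 in edgeR) and -1.38 (SE 0.30, adjusted p = 0.0723 in edgeR).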
